A study of Canis lupus familiaris with 32 samples.

Results

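Neonatal peak genes are, here, genes whose RNA stood higher in hip capsule and teres ligament of young dogs than in the embryonic hip and in adult control tissue. The members were chosen by these measured levels. A gene was a member when, in both tissues, its mean in young libraries was at least 3 times the embryonic mean, at least 3 times the adult control mean and at least 5 CPM (a gene's share of all fragments in a library, scaled to a library of 1000000 fragments), and when the average of the 7 group means was below 1000 CPM. Of 24580 genes listed, 15 were members. In all, 36 genes met the conditions in capsule and 42 in ligament, 18 met them in both, and 3 of these lay over the ceiling. Of the 3 genes that the rule leaves out by name, 0 met all conditions with the ceiling included.

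The study compared hip soft tissues of dogs, in which hip dysplasia arises naturally, by sequencing of total RNA after removal of ribosomal RNA. Young dogs, under 1 month of age, gave 6 capsules and 4 ligaments. Affected dogs gave 4 capsules (3 from dogs aged 4 months, 1 from an adult) and 7 ligaments (3 from the same dogs aged 4 months, 4 from adults). Adult control dogs gave 5 capsules and 3 ligaments, and embryos gave 3 libraries of whole hip. The 32 libraries came from 25 dogs, 7 of which gave both tissues, and libraries of a group came from different dogs. Embryonic libraries held the whole hip, so age and tissue differ together in any comparison with them. No control was younger than adult, so in capsule and in the pooled ligament group disease and age overlap. All 3 dogs aged 4 months, and the young dog that gave replicate 2 of both tissues, carry identifiers with a common start that no other dog has. The labels do not explain it, and it cannot be told apart from age when 4 months is set against adult.

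The joint capsule is the fibrous sleeve that encloses the hip, lined on its inner face by synovium, and the teres ligament is a band inside the joint between the femoral head and the acetabulum. Both are built mainly by fibroblast-like cells that lay down collagen and elastic fibres, and both grow and are remodelled after birth. Canine hip dysplasia is a disorder of postnatal development in which the joint becomes lax, and the capsule and this ligament help to hold the femoral head in place. The tables list genes by Ensembl identifier, and the reference table used here pairs none of them with a symbol (0 of 24580), so the 15 genes are given by identifier, with no name, function or sequence, and the tissue labels were not checked against marker genes.

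Library totals ran from 2857235 to 9895143 fragments (median 4993068). Across genes, the median Pearson r of a library with the others of its group was between 0.886 (affected capsule replicate 4) and 0.976. Of all values, 9 in 3 genes carried a failed status, and none of these was a member's.

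Per length, the 15 genes covered a wide span. Averaged over the young groups, 9 members stood between 49.9 and 719 FPKM and 6 between 2.07 and 16.3 FPKM. ENSCAFG00000028947 had the highest young average on this scale (719 FPKM), followed by ENSCAFG00000013079 (339 FPKM) and ENSCAFG00000013892 (313 FPKM). Gene length, taken from the ratio of the authors' scaled signal to FPKM, had a median of 1.67 times that of the median gene among members and 1.45 times among the 10649 genes with a young average of at least 5 CPM. Levels below are in CPM unless stated, and differences are those of the same gene between libraries. CPM is not scaled to length, which ran from 0.404 to 3.28 times the median gene among members. Ranks and high or low levels in CPM therefore hold on that scale alone.

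**Figure D1:**
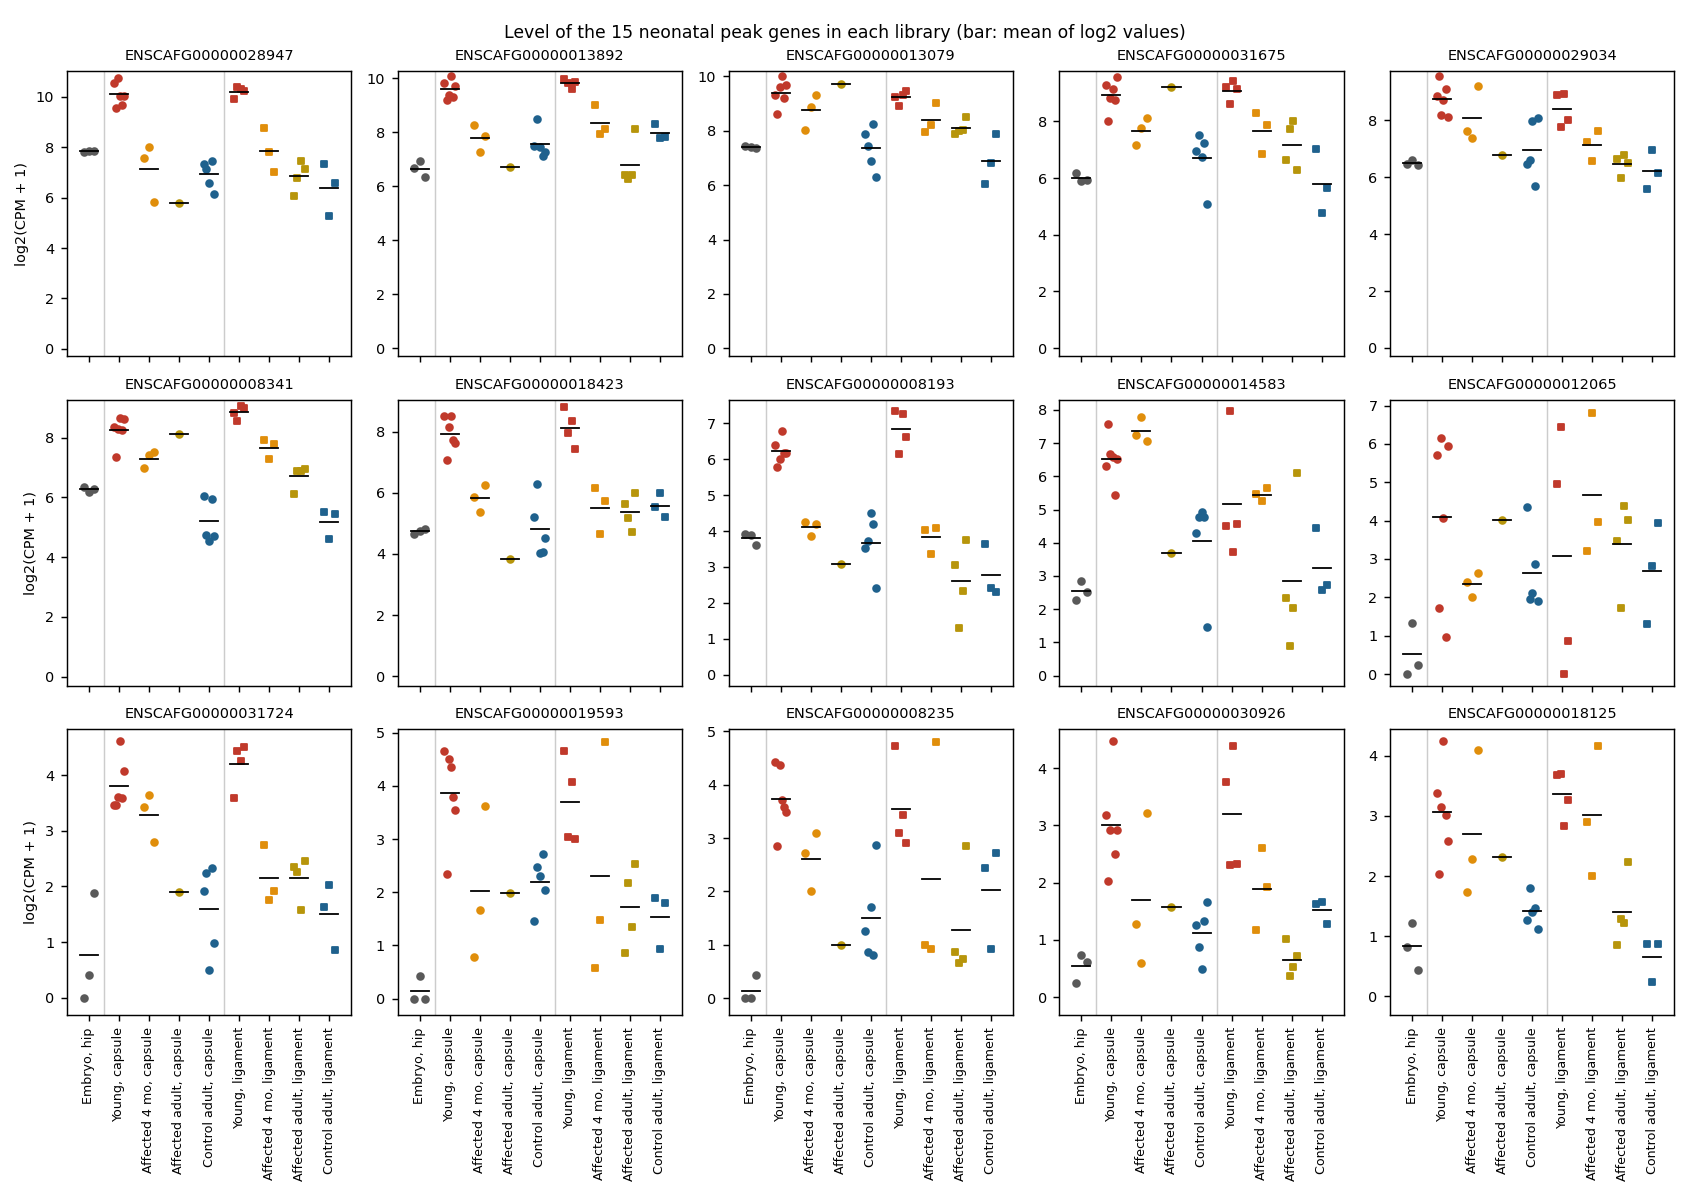
Level of each of the 15 members in each library, as log2(CPM + 1) on the vertical axis, by tissue and age group; circles are embryonic hip and capsule, squares are ligament, and bars are means of the log2 values. In 11 panels the young libraries of each tissue lie above the embryonic libraries and the control libraries of the same tissue, while ENSCAFG00000012065 is scattered in young dogs from 0 to 86.4 CPM.

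The ratios that chose the members are a description and carry no test. The young mean was 3.04 to 9.01 times the control mean in capsule (median 4.96) and 3.38 to 18.3 times in ligament (median 6.70). Against the embryonic mean it was at least 4.16 times in capsule and at least 3.62 times in ligament, with medians of 10.1 and 11.5. The smallest of a member's 4 ratios was against a control group in 12 members and against the embryo in 3. ENSCAFG00000029034 lay just inside the rule, with a young mean 3.04 times the control mean in capsule, and ENSCAFG00000018825 lay just outside, with a young mean 2.94 times the embryonic mean in capsule. ENSCAFG00000029034 missed the rule without young capsule 2 or 5 or control capsule 1, 2 or 4, and 11 of 15 members met it with any 1 library left out. A further 17 genes that met every other condition had a smallest ratio between 2 and 3.

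ENSCAFG00000028947, the member with the highest young average both in CPM and per length, was at 1484, 749, 1728, 1038, 821 and 1054 CPM in young capsules 1 to 6, against 161, 139, 94.8, 172 and 69.4 CPM in control capsules. In ligament it was at 954, 1331, 1248 and 1205 CPM in young dogs, against 160.4, 37.5 and 93.6 CPM in controls. Embryonic hips held 221, 227 and 232 CPM. The lowest young library, at 749 CPM, was above the highest embryonic or control one, at 232 CPM.

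ENSCAFG00000013892, taken up next for its young average in CPM, was at 911, 581, 663, 1086, 631 and 832 CPM in young capsules, against 179.9, 355, 172, 139.5 and 152 CPM in control capsules. Young ligaments held 1013, 892, 769 and 932 CPM, against 316, 219.9 and 227 CPM in the control ligaments. The young libraries again stood clear of the rest. The embryonic mean, 101 ± 20.4 CPM (SD, n = 3), was below the control means of 199.8 ± 88.4 CPM (n = 5) in capsule and 254 ± 53.5 CPM (n = 3) in ligament.

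The members with the widest margin were ENSCAFG00000018423, whose smallest ratio was 6.16, and ENSCAFG00000008193, at 5.71. ENSCAFG00000018423 stood at 134 to 367 CPM in young capsules (median 247) and at 15.4 to 77.3 CPM in control capsules (median 22). It was at 444, 244, 323 and 174 CPM in young ligaments, against 45.7, 62.4 and 36.2 CPM in control ligaments. In embryonic hips it was at 23.9, 26 and 27.3 CPM. The groups did not overlap in either tissue.

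ENSCAFG00000008193 was at 83.9, 53.8, 63.2, 109, 70.8 and 71.2 CPM in young capsules, against 10.5, 12.2, 21.8, 17.2 and 4.31 CPM in control capsules. It was at 163, 70, 154 and 98 CPM in young ligaments, against 11.5, 4.37 and 3.91 CPM in control ligaments. The embryonic values of 14.3, 13.9 and 11.3 CPM fell within the range of control capsules. Of the members it had the largest young over control ratio in ligament, 18.3.

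Among the other members of high level, ENSCAFG00000013079 was at 391 to 1033 CPM in young capsules (median 709) and 76.9 to 301 CPM in control capsules (median 174). Its embryonic values of 172, 168 and 164 CPM lay at the control level, above the lowest controls of either tissue. ENSCAFG00000031675 was at 259 to 752 CPM in young capsules and 32.6 to 183 CPM in control capsules, and in ligament at 588, 389, 686 and 562 CPM in young and 128, 26 and 48.7 CPM in control dogs. Both genes had no overlap between young and control libraries in either tissue.

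ENSCAFG00000029034, the member nearest to the threshold, was at 459, 749, 293, 420.3, 550.2 and 275 CPM in young capsules, against 86.4, 96.6, 251, 51.1 and 268 CPM in control capsules. The lowest young capsule lay just above the highest control capsule. In ligament it was at 469.9, 215, 485 and 259.5 CPM in young dogs, against 47.4, 122 and 69.5 CPM in controls, a wider gap.

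Among the members of low level, ENSCAFG00000031724 was at 10.1 to 23.3 CPM in young capsules and 0.415 to 4.04 CPM in control capsules. ENSCAFG00000018125 was at 9.45, 3.09, 7.88, 18, 7.06 and 5.02 CPM in young capsules, against 1.4, 2.48, 1.66, 1.77 and 1.18 CPM in control capsules. Both kept the groups apart, although the lowest young capsule of ENSCAFG00000018125 was close to the highest control. ENSCAFG00000030926 was at 3.09 to 21.2 CPM in young capsules and 0.415 to 2.16 CPM in control capsules, and at 12.5, 3.94, 19.9 and 3.99 CPM in young ligaments against 2.1, 2.18 and 1.44 CPM in control ligaments. Its young values spread more widely than the distance to the controls.

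Not every member was high in every young dog. Every young library lay above every control library in 12 of 15 members in capsule and 13 of 15 in ligament, where 5.72% and 7.56% of all genes with a young mean of at least 5 CPM did so. Every young library lay above every embryonic library in 14 members in either tissue (9.16% and 13.6% of those genes). Since the rule used these contrasts, nothing is read from these counts. All 4 orders held in 11 members, and the other 4 are named here because of their values.

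ENSCAFG00000012065 had an overlap in all 4 orders. It was at 51.3, 2.27, 70.7, 15.7, 0.963 and 60.4 CPM in young capsules, against 19.6, 2.89, 3.32, 6.32 and 2.75 CPM in control capsules. Young ligaments held 30, 86.4, 0 and 0.831 CPM, against 1.47, 6.01 and 14.2 CPM in control ligaments. Its 0 fragments in young ligament replicate 3 allow a level of up to 0.459 CPM (3 fragments). Of its young libraries, 3 of 6 capsules and 2 of 4 ligaments lay above every control of the tissue.

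ENSCAFG00000014583 was at 79.2, 189, 101, 94.7, 42.2 and 91.8 CPM in young capsules, against 18.5, 26.5, 29.5, 26.3 and 1.77 CPM in control capsules. In young ligaments it was at 21.5, 247, 12.1 and 22.4 CPM, against 21, 4.92 and 5.55 CPM in control ligaments. The 247 CPM belong to young replicate 2, the dog that also gave the highest young capsule, and the other 3 young ligaments lay near or within the control range. Without young ligament replicate 2 neither this gene nor ENSCAFG00000012065 met the rule. ENSCAFG00000012065 also missed it without control ligament 1.

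ENSCAFG00000019593 and ENSCAFG00000008235 overlapped with controls in capsule alone, and both had nearly no fragments in embryonic hip. ENSCAFG00000019593 had 507 fragments over 6 young capsules against 2 over 3 embryonic hips, a ratio of pooled CPM of 127 (exact 95% counting interval 34.9 to 1050). ENSCAFG00000008235 had 436 against 2 fragments, a ratio of 109 (30 to 903). Without young ligament 1 or control ligament 2 the gene ENSCAFG00000008235 missed the rule. The lowest young capsule of both genes, at 4.06 and 6.17 CPM, was replicate 2, and the highest control capsule was at 5.56 and 6.28 CPM.

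Young capsule replicate 2 was the lowest of the 6 young capsules in 12 of 15 members, and replicate 4 the highest in 8. Across genes, replicate 2 also had the lowest median r with the other young capsules, 0.949. In ligament the lowest library was replicate 2 in 6 members, replicate 3 in 4, replicate 4 in 3 and replicate 1 in 2. The share of all genes with these orders was not computed, so the counts are a description and no trait of the members is read from them. The coefficient of variation among young capsules had a median of 38.5% over members (24.8% to 92.1%) and of 23.0% over the 10679 genes with a young mean of at least 5 CPM. Among young ligaments the medians were 36.7% over members (11.3% to 151%) and 21.1% over 10408 genes. The rule used the means of these same libraries, and ENSCAFG00000014583 and ENSCAFG00000012065 met it only with young ligament 2. Nothing is therefore read from the higher medians of members. The part of exact age within the first month, dog or library in the spread among young libraries was not tested.

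Averaged as log2(CPM + 1) over all 15 genes, embryonic hips stood at 3.52 to 3.76 and young libraries at 5.81 to 6.93 in capsule and 6.08 to 6.8 in ligament. Affected capsules lay between 4.65 and 5.65 and control capsules between 3.77 and 4.46. Affected ligaments lay between 3.83 and 5.64 and control ligaments between 3.72 and 4.21. The young and embryonic values restate the rule. The affected libraries set no ratio of it and entered only the ceiling.

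**Figure D2:**
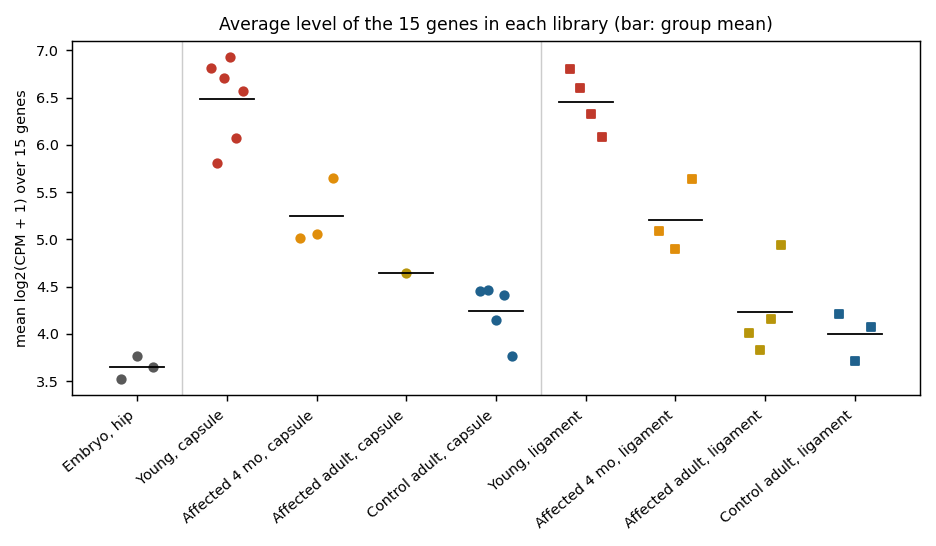
Mean log2(CPM + 1) over the 15 members in each library (vertical axis), by age group and tissue; bars are group means. The libraries at 4 months lie between those of young dogs and adult controls, which the rule set apart, and the adult affected ligaments spread from 3.83 to 4.94.

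Affected ligaments of dogs aged 4 months were compared with those of adults because no library of this comparison set a ratio of the rule. Of the 13 members that passed the filter on low counts, 0 were called with edgeR (adjusted p under 0.05), where 14.6% of 12619 genes were called, 6.24% as higher at 4 months. An unadjusted p under 0.05 was reached by 2 of 13 members and by 33% of all genes, and DESeq2 called 1 of 13 (18% of all its genes). The log2 fold change was positive in 11 of 13 members, with a median of 0.78, beside 52% of all genes and a median of 0.03. Without the filter all 15 could be fitted, 13 were positive and the median was 0.77, beside -0.01 over all 18257 genes.

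**Figure D3:**
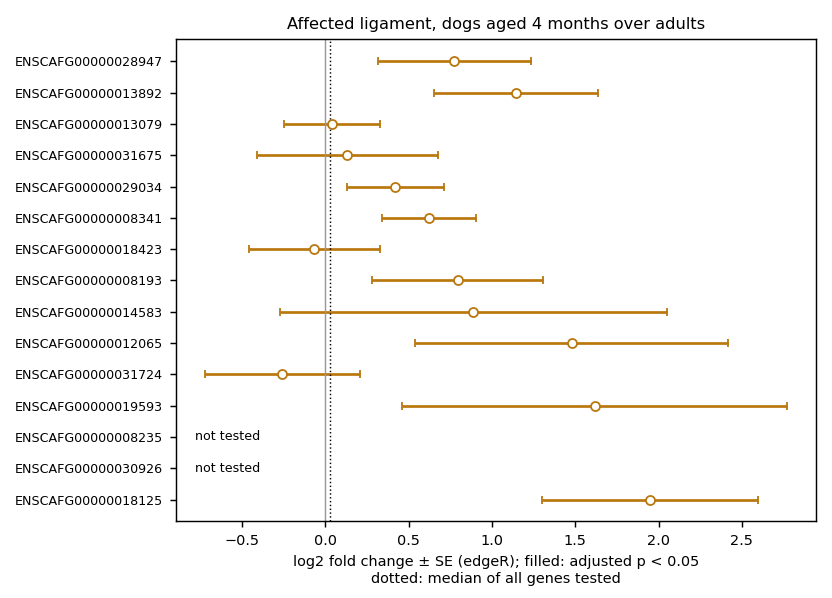
Log2 fold change of each member in affected ligaments, dogs aged 4 months over adults (horizontal axis, edgeR, bars are SE), for the 13 members that could be tested. Points lie mostly to the right of 0 and of the dotted median of all genes, and no point is filled, since none passed an adjusted p of 0.05.

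ENSCAFG00000018125, named for having the largest log2 fold change in this comparison, was at 6.47, 3 and 16.9 CPM at 4 months and at 0.818, 1.45, 1.33 and 3.69 CPM in adults. The groups overlapped at their edges (log2 1.95, SE 0.65, edgeR adjusted p = 0.068). ENSCAFG00000013892 was at 512, 245 and 277 CPM at 4 months and at 83.7, 75.9, 83.6 and 275 CPM in adults (log2 1.14, SE 0.49, edgeR adjusted p = 0.14). In this gene 3 adults lay far below all dogs aged 4 months, and adult replicate 4 lay among them.

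Adult replicate 4 stood with the younger dogs in ENSCAFG00000014583 as well. That gene was at 43.1, 36.9 and 49 CPM at 4 months and at 4.09, 0.872, 3.1 and 67.4 CPM in adults (log2 0.89, SE 1.16, edgeR adjusted p = 0.64). Without adult replicate 4, 3 of 12 members were called higher at 4 months, where 17.8% of 12357 genes were called, 7.72% as higher. They were ENSCAFG00000014583 (log2 3.62, edgeR adjusted p = 0.0019), ENSCAFG00000013892 (1.77, 0.0081) and ENSCAFG00000018125 (2.57, 0.032). Leaving out any other single library gave 0 calls among members.

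ENSCAFG00000008341 and ENSCAFG00000030926 were the members in which every ligament at 4 months lay above every adult affected one, an order that 25.1% of all genes with a mean of at least 1 CPM showed. ENSCAFG00000008341 was at 239, 156 and 220.0 CPM at 4 months and at 68.5, 117, 118 and 123 CPM in adults (log2 0.62, SE 0.28, edgeR adjusted p = 0.15). ENSCAFG00000030926 was at 1.25, 5.09 and 2.78 CPM against 1.02, 0.291, 0.443 and 0.642 CPM, and it was too low to pass the filter. No member lay below in every library (6.87% of all genes).

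In capsule, a single adult affected library faced 3 from dogs aged 4 months, so there is no test. All 3 lay above the adult in 8 members (23.6% of 13844 genes) and below it in 4 (29.2%). The median difference was 1.03 on the log2(CPM + 1) scale over members and -0.03 over all genes. The widest was that of ENSCAFG00000014583, at 149.8, 219 and 132 CPM at 4 months against 11.9 CPM in the adult.

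The 4 members that ran the other way were ENSCAFG00000013079, ENSCAFG00000031675, ENSCAFG00000008341 and ENSCAFG00000012065. ENSCAFG00000013079 was at 262, 474 and 639 CPM at 4 months and 845 CPM in the adult, and ENSCAFG00000031675 at 142, 215 and 275 CPM against 597 CPM. Both adult values fell inside the range of young capsules (391 to 1033 and 259 to 752 CPM). ENSCAFG00000008341 was at 125, 170.5 and 181 CPM at 4 months and at 275 CPM in the adult, and ENSCAFG00000012065 at 4.31, 3.03 and 5.22 CPM against 15.1 CPM. Their adult values fell inside the range of young capsules as well (162 to 402 and 0.963 to 70.7 CPM). In the other 3 members the adult lay among the dogs aged 4 months.

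The control and young means chose the members and were set at least 3 times apart by the rule, so where other groups lie between them is a description from which nothing is read. In capsule, the mean at 4 months lay between the control and the young mean in 13 of 15 members, and in ligament in 14 of 15. The mean of adult affected ligaments lay between them in 10. The mean at 4 months lay above the young mean for ENSCAFG00000014583 in capsule (167 ± 45.8 CPM, n = 3, against 99.6 ± 48.4 CPM, n = 6) and for ENSCAFG00000012065 in ligament. For ENSCAFG00000014583 the affected capsules had the highest of the 7 group means, which makes it the 1 member of 15 that did not peak in a young group. In these whole-tissue libraries, fewer cells of a type and less RNA per cell cannot be told apart.

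The difference between tissues was tested within dogs, with the dog as a block. In the 3 young dogs that gave both tissues, 0 of 15 members were called with edgeR, where 3.86% of 12632 genes were called (2.52% as higher in capsule). An unadjusted p under 0.05 was reached by 4 of 15 members and by 18.1% of all genes, and DESeq2 called 2 (5.43% of its genes). The rule asks for a high level in both tissues and so limits how far they can differ. The lowest adjusted p were those of ENSCAFG00000008193 (capsule over ligament log2 -0.65, SE 0.15, edgeR adjusted p = 0.073) and ENSCAFG00000008341 (-0.72, SE 0.18, adjusted p = 0.090), both lower in capsule in each of the 3 dogs. These 2 were also the ones called by DESeq2 and without the filter on low counts.

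In the 3 affected dogs aged 4 months, 1 of 14 members tested was called, where 1.26% of 12579 genes were (1.19% as higher in capsule). DESeq2 called 3 of 15, where it called 2.11% of its genes, namely ENSCAFG00000014583, ENSCAFG00000012065 and ENSCAFG00000029034. ENSCAFG00000014583 was at 149.8, 219 and 132 CPM in capsule and at 43.1, 36.9 and 49 CPM in ligament of the same dogs (log2 2.22, SE 0.36, edgeR adjusted p = 0.013). It was higher in capsule in 3 of 3 dogs and remained called with any 1 dog left out (log2 1.81 to 2.54, adjusted p = 0.0057 to 0.047). Scaled to library totals alone it stood at log2 1.93 with an adjusted p of 0.057, in a fit whose median over all genes was -0.34. In young dogs the same difference was 1.11 (SE 0.58, edgeR adjusted p = 0.43). In young replicate 2 the order ran the other way, at 189 CPM in capsule and 247 CPM in ligament. Without that dog the difference was 1.86 (edgeR adjusted p = 0.0054), resting on 2 dogs, both higher in capsule.

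**Figure D4:**
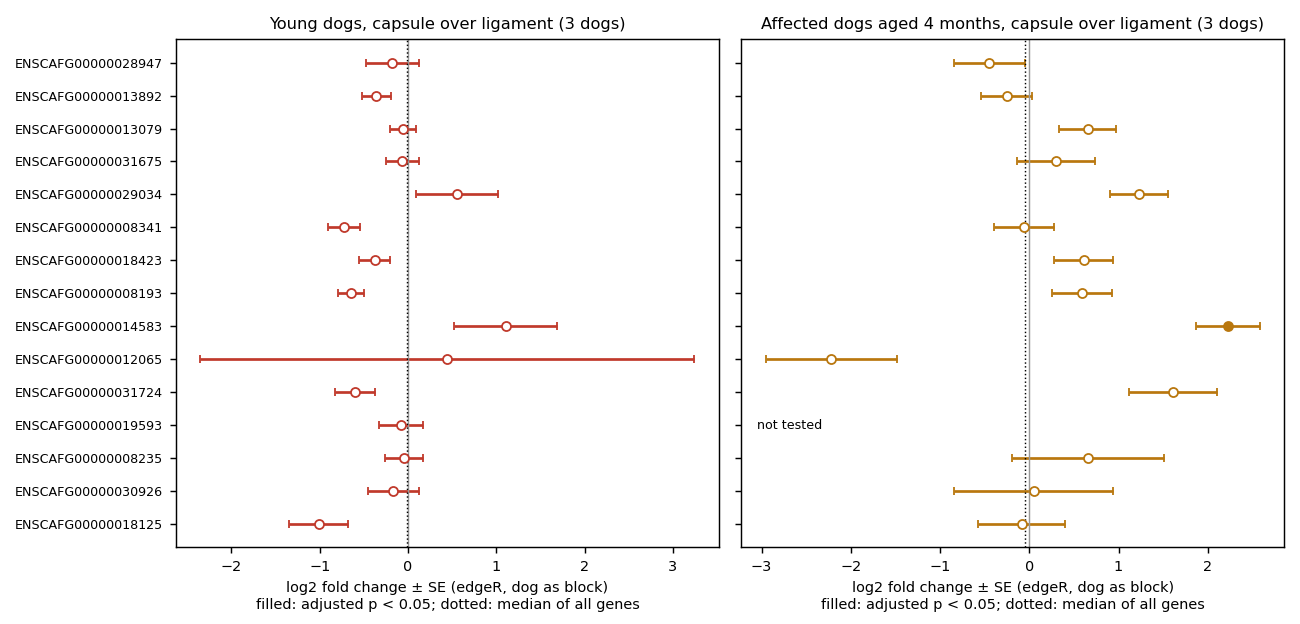
Log2 fold change of capsule over ligament (horizontal axis, edgeR with the dog as block, bars are SE) for each member in 3 young dogs (left) and 3 affected dogs aged 4 months (right). The filled point on the right is ENSCAFG00000014583, at log2 2.22.

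ENSCAFG00000031724 and ENSCAFG00000029034 were at log2 1.61 (SE 0.49, edgeR adjusted p = 0.26) and 1.23 (SE 0.33, adjusted p = 0.18) in the dogs aged 4 months, and were not called. ENSCAFG00000031724 was at 9.7, 11.5 and 5.93 CPM in capsule and at 5.73, 2.4 and 2.78 CPM in ligament, with no overlap. Every capsule lay above every ligament in 2 members, this one and ENSCAFG00000014583 (3.73% of all genes), and below in 1, ENSCAFG00000012065 (18.8%). ENSCAFG00000012065 was at 4.31, 3.03 and 5.22 CPM in capsule and at 8.22, 111 and 14.5 CPM in ligament (log2 -2.22, SE 0.73, adjusted p = 0.32). Whether these differences changed between the ages was not tested.

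Some members were high in both tissues of the same dog. ENSCAFG00000019593, ENSCAFG00000008235 and ENSCAFG00000018125, picked after their values were seen, were high in both libraries of the dog that gave affected capsule 4 and affected ligament 7. They were at 11.4, 7.59 and 16.1 CPM in its capsule and at 27.6, 26.9 and 16.9 CPM in its ligament. The other 2 dogs aged 4 months had 0.719 to 5.57 CPM in capsule and 0.498 to 6.47 CPM in ligament for these genes. Over all members, the order of the 3 dogs was the same in capsule and ligament in 5 of 15 at 4 months and 6 of 15 in young dogs. This happened in 19.6% and 29.6% of all genes with a mean of at least 1 CPM.

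The comparison of affected with control dogs is the study's own question, but the control libraries helped to choose the members for low control means, so these values are a description. In capsule, edgeR called 1 of 14 members tested (0.236% of 12718 genes, 0.134% as higher), and 6 of 14 passed an unadjusted p of 0.05, as did 6.16% of all genes. DESeq2 called 2 of 15 (0.95% of its genes), adding ENSCAFG00000013079. The gene called by both was ENSCAFG00000008341, at 275, 125, 170.5 and 181 CPM in affected capsules 1 to 4 and at 64.7, 25.6, 22.2, 61.2 and 24.9 CPM in control capsules. The groups did not overlap (log2 2.40, SE 0.37, edgeR adjusted p = 0.035), an order that 0.766% of all genes showed. No member was below in every library (2.36% of all genes). The gene kept its direction and size with any 1 library left out (log2 2.16 to 2.60, adjusted p = 0.030 to 0.10), but the call was lost without affected capsule 3 or 4 or control capsule 1, 2, 3 or 5.

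In ligament the control means helped to choose the members as well, so the values and shares here are again a description. There edgeR called 0 of 15 members. An unadjusted p under 0.05 was found for 4 of 15 and for 8.18% of all genes, and DESeq2 made 1 call, ENSCAFG00000008341. Over all genes edgeR called 0 of 12937 (0%) and DESeq2 0.0831%. ENSCAFG00000008341 was at 68.5, 117, 118 and 123 CPM in affected adults and 239, 156 and 220.0 CPM in affected dogs aged 4 months, against 44.6, 23.5 and 42.2 CPM in controls (log2 2.06, SE 0.38, edgeR adjusted p = 0.50). All 7 affected ligaments, the 4 adult ones included, lay above all 3 controls, as they did in ENSCAFG00000013079 (0.916% of all genes, and 2.91% for the adult ligaments alone). None lay below in every library (1.19% of all genes), while among the adults alone 1 did, ENSCAFG00000030926 (11.6% of all genes), at 0.291 to 1.02 CPM in affected and 1.44 to 2.18 CPM in control ligaments. The affected ligaments of ENSCAFG00000013079 held 236, 253, 261, 361, 245, 296 and 523 CPM and those of controls 64.6, 111 and 234 CPM (log2 1.24, SE 0.39, edgeR adjusted p = 0.60).

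ENSCAFG00000013079 was at 845, 262, 474 and 639 CPM in affected capsules and at 236, 174, 118, 301 and 76.9 CPM in control capsules, with an overlap at 1 library on either side (log2 1.76, SE 0.41, edgeR adjusted p = 0.13). ENSCAFG00000014583 was the member with the largest log2 fold change in capsule, 2.82 (SE 0.79, adjusted p = 0.36), at 149.8, 219 and 132 CPM in the affected dogs aged 4 months but at 11.9 CPM in the affected adult. The control capsules of that gene held 1.77 to 29.5 CPM. At the other end, ENSCAFG00000013892 averaged 199 ± 89.1 CPM (n = 4) in affected and 199.8 ± 88.4 CPM (n = 5) in control capsules, a difference far inside the spread between libraries.

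**Figure D5:**
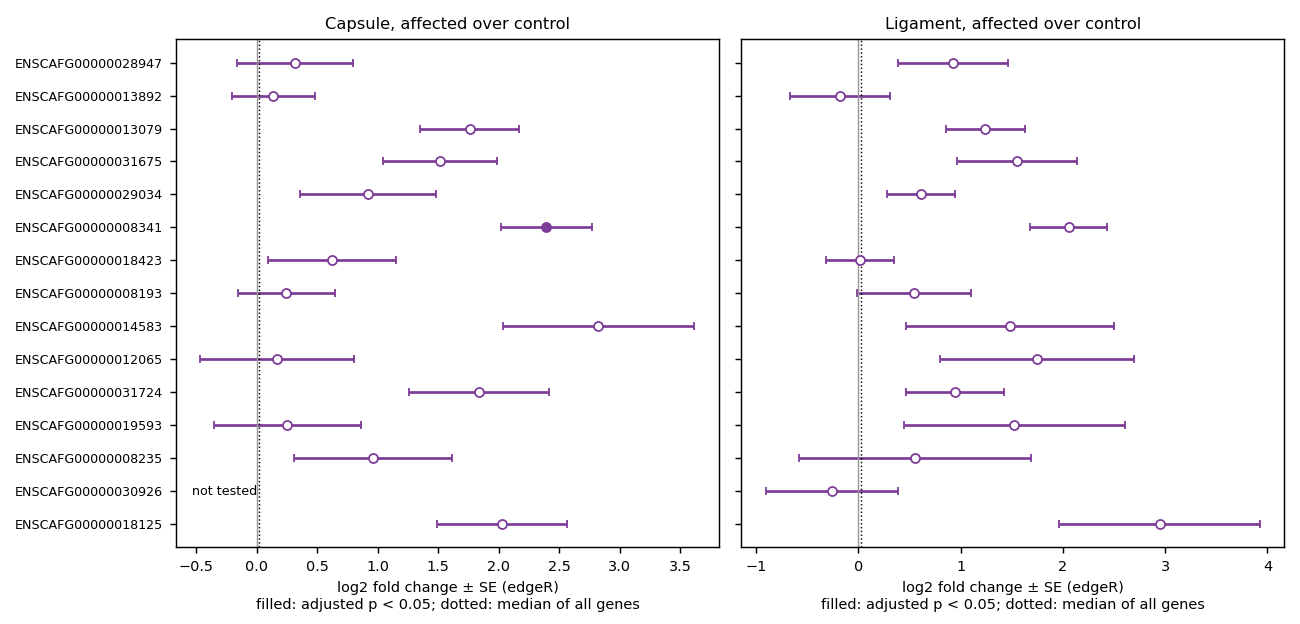
Log2 fold change of affected over control dogs (horizontal axis, edgeR, bars are SE) for each member in capsule (left, 14 tested) and ligament (right, 15 tested). The filled point is ENSCAFG00000008341 in capsule, at log2 2.40, and the same gene stands at 2.06 in ligament without passing the threshold.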

How the data were processed

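The submitters' processing notes name the genome canFam3 and the tools Cuffdiff 2.2.1, TopHat2 2.0.13, Bowtie2 2.2 and cutadapt 1.8, in no order. Libraries were made with a directional kit, per the labels' protocols, but neither the annotation release nor the strand setting of the counting is stated there. The deposited table of all samples lists an estimated count of fragments per gene and library, per the file headers. Values were whole except 0.332% (tolerance 1e-06), with all member values whole, and were rounded. Beside it stand an internally scaled signal and FPKM, both deposited by the authors. With the strand setting unknown, overlapping and antisense genes, and near-identical copies, could not be told apart.

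Members were found on CPM of the library sum. They, the gene lists and the tests were chosen with earlier results of these data known, and lists by symbol could not be used because 0 identifiers matched the RefSeq table (UU_Cfam_GSD_1.0). Named members are the 2 with the highest young average in CPM (by FPKM the second of these ranks 3), the 2 with the widest margin, those called, and those nearest the threshold; others were named after their values were seen. Comparisons used edgeR 4.0.16 in R 4.3.3 (filterByExpr, TMM, robust quasi-likelihood F test, Benjamini-Hochberg over all genes, called under 0.05). The SE beside an edgeR log2 fold change is its absolute value divided by the square root of the F statistic, not a value that the fit returns. Counts simulated to check the code had no dog effect, and nothing is read from that check here. Alternatives used DESeq2 1.42.0, limma 3.58.1 on log2(FPKM + 1) for genes with a mean FPKM of at least 0.5, no filter, no TMM, and each library left out. Intervals and floors (3 fragments) cover counting error only. No 2 libraries of a group agreed within sampling noise (lowest chi-square per gene 4.24 in 64 pairs). The dog identifiers in the labels pair the tissues. Deviations of a dog's capsule and ligament from their group means correlated at r = 0.13 to 0.56 in young dogs and 0.06 to 0.17 at 4 months. A capsule correlated best with the ligament of its own dog in 3 of 3 young dogs and 2 of 3 at 4 months.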

Additional observations from a re-analysis of the deposited data

Results flagged for a closer look

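A library far from the others of its group was looked for in 75 sets of values. These were 15 members in 5 groups of 4 to 7 libraries. In all, 10 were found, each the highest of its group. The limit used is passed by about 1 in 20 sets of normally distributed values. Whether CPM values are so distributed was not tested, so the 10 are not set against that rate. Affected groups mix ages. In ligaments of affected dogs, replicate 7 was highest at 27.6 CPM for ENSCAFG00000019593 (next 4.81), 26.9 CPM for ENSCAFG00000008235 (next 6.26) and 16.9 CPM for ENSCAFG00000018125 (next 6.47). The capsule of the same dog, affected replicate 4, was highest for ENSCAFG00000018125 at 16.1 CPM (next 3.97). ENSCAFG00000012065 reached 111 CPM in affected ligament 6 (next 19.7) and 19.6 CPM in control capsule 1 (next 6.32). ENSCAFG00000014583 reached 247 CPM in young ligament 2 (next 22.4), and ENSCAFG00000030926 21.2 CPM in young capsule 4 (next 8.03). In control capsules, ENSCAFG00000013892 reached 355 CPM in replicate 2 (next 179.9) and ENSCAFG00000008235 6.28 CPM in replicate 5 (next 2.28).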

How the results depend on the processing

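The number of members was 14 to 17 with any 1 library of the rule left out, 32 with a fold of 2, 5 with a fold of 5, and 25 (all 15 among them) on TMM-scaled CPM; the cause was not tested. Members called at 4 months against adult in ligament numbered 0, against 1 with DESeq2, 2 on library totals without TMM (where the median of all genes moved to 0.34 and 21.3% of all genes were called) and 0 to 3 with 1 library left out. Capsule against ligament at 4 months gave 1, against 3 with DESeq2 and 0 without TMM (1 with each dog left out). In young dogs it gave 0, against 2 with DESeq2, 2 without the filter and 0 to 1 with 1 dog left out. Affected against control capsule gave 1, also without TMM (where the median of all genes moved to -0.12), against 2 with DESeq2 and 0 to 1 with 1 library left out. In ligament it gave 0, also with each library left out, and 1 with DESeq2. With the adult affected ligaments alone against the adult controls, 0 of 13 members tested and 0 of 12505 genes were called. By the dog identifiers, the replicate numbers of affected and control dogs mark different dogs. Own number was closest in 1 of 4 capsule and 2 of 3 ligament pairs, which by itself decides nothing. A fit with these numbers as a block used capsules 1 to 4 and ligaments 1 to 3 of each group, so its affected ligaments were all adult. Its block joins different dogs and is no true pairing, so nothing is read from its calls. Members called in it numbered 0 in capsule (0.0481% of all genes) and 2 in ligament (1.66%). In that ligament fit ENSCAFG00000008341 was higher and ENSCAFG00000013892 lower in affected dogs (log2 1.72 and -1.38). With all 7 affected ligaments ENSCAFG00000013892 was at log2 -0.18 (edgeR adjusted p = 0.92). Without the dog block the counts were 1 at 4 months and 0 in young dogs, as with it. Of the named log2 changes that were checked, none reversed in any alternative. That of ENSCAFG00000013892 in affected against control dogs was not among them. With 1 library left out it changed sign, at log2 -0.52 to 0.02 in ligament and -0.14 to 0.42 in capsule. Depth limits most the 6 members of lowest level (16.3 FPKM or less in young dogs).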
